A study of Mus musculus with 18 samples.

Results

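Hepcidin and the genes that take up, store and export iron were followed in mouse liver and pancreas with 1 or 0 intact copies of Otub2, which encodes an OTU family deubiquitinase. The group holds 10 of the 55291 gene rows of the liver table: the hepcidin genes Hamp and Hamp2, transferrin (Trf), the transferrin receptors Tfrc and Tfr2, ferroportin (Slc40a1), the ferritin chains Fth1 and Ftl1, ceruloplasmin (Cp) and the hepcidin inducer Bmp6. Rows were taken by gene symbol. The genes were selected on values already seen in these livers, so the liver levels and differences below are a description and carry no test.

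Liver libraries came from heterozygous mice (HET, OTUB2 +/-, 5 libraries) and were set against wild-type livers (WT, OTUB2 +/+, 2 libraries). The pancreas libraries came from 3 homozygous knockouts (HOM, OTUB2 -/-, all male), 5 HET (2 females and 3 males) and 3 WT (1 female and 2 males). Per the labels, mice were kept under normal conditions, and no diet, age or strain is given, nor a sex for the livers. The labels do not say whether each sample is a separate animal, so p-values measure only the spread between these samples. The deleted part of Otub2 is not given, and reads of the 3′ end may lie outside it. Otub2 had 1, 0, 1, 1 and 2 counts in HET 1 to HET 5 and 1 and 0 counts in WT 1 and WT 2, too few to check the liver genotypes.

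Hepcidin is a small peptide hormone made mostly by hepatocytes. It binds ferroportin, the iron exporter of macrophages, gut cells and hepatocytes, and causes its degradation, so that less iron enters the blood. Hepatocytes raise hepcidin transcription when BMP6 and BMP2 from the liver endothelium signal through SMAD proteins, and when interleukin 6 signals through STAT3. Mice carry a pair of adjacent hepcidin genes, and in transgenic mice excess Hamp but not excess Hamp2 caused anaemia.

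Both hepcidin genes lie on the minus strand of mouse chromosome 7 (mm10), Hamp (ENSMUSG00000050440.8) at 30942368 to 30944032 and Hamp2 (ENSMUSG00000056978.8) at 30922372 to 30924681. The windows of 250 bases before their RefSeq start sites (GRCm38.p6, minus strand) are chr7:30944030-30944279 for Hamp and chr7:30924182-30924431 for Hamp2. Of the 3 GENCODE transcripts of Hamp2, 2 start just after its window, at the RefSeq start site, and 1 starts upstream and holds the whole window in an intron. The 3 bases of the Hamp window nearest to the gene lie in the first exon of its GENCODE transcript. The windows are shown because the genes share most of this sequence but differed in their liver counts. They are reference sequence, not read from these mice, and any part of them in the difference between genotypes was not tested. Capitals mark GGCGCC, the core of the BMP-responsive element known from hepcidin promoters, with the stretch of Hamp2 aligned to it, and the STAT-type motif TTCNNNGAA.
Hamp: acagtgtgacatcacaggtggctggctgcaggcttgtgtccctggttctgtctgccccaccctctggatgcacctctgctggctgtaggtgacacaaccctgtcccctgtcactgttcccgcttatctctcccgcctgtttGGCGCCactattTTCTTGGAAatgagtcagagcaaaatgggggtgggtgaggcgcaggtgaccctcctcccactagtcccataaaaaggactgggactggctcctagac
Hamp2: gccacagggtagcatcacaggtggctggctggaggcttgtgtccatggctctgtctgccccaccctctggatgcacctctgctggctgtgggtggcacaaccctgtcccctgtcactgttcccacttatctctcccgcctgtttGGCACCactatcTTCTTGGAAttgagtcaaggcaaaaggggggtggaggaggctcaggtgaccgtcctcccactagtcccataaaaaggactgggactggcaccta

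The windows aligned over 247 pairs of bases with no inner gap, and 227 pairs (91.9%) were identical. Hamp held GGCGCC at -109 to -104 from its start site, and Hamp2 held GGCACC in its place at -106 to -101. The substitution is G145A, the Hamp base first, counted from 1 at the 5′ end of the Hamp window. Both held the same STAT-type letters TTCTTGGAA, at -97 to -89 in Hamp and -94 to -86 in Hamp2. Searched on both strands, GGCGCC occurred in 9.59% and TTCNNNGAA in 7.02% of 32851 RefSeq windows of this length. The 2 motifs do not overlap each other in these windows. Of the 10 genes, 8 had an entry in that table (not Trf and Slc40a1), with 13 start sites and so 13 windows. GGCGCC was found in Hamp and Tfrc, and TTCNNNGAA in Hamp and Hamp2, so each motif was in 2 of the 13 windows. A match of letters is no evidence of binding, and a window without them says nothing of the factor.

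**Figure D1:**
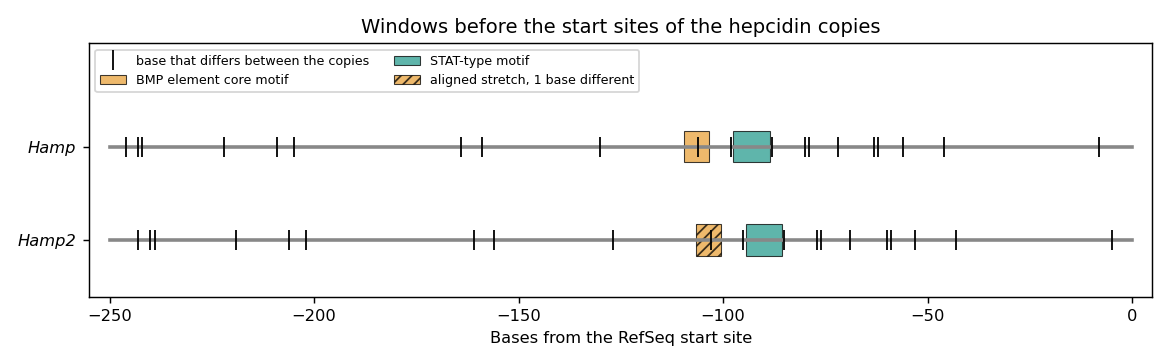
Distance in bases from the RefSeq start site (x axis) along the windows of Hamp (upper line) and Hamp2 (lower line). Ticks are the 20 substituted bases, boxes are the motifs, and the hatched box on Hamp2 is the stretch that differs from GGCGCC by 1 base.

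The mature messages are also alike. The GENCODE transcripts of the copies matched at 388 of 410 aligned bases (94.63%), with an identical run of 87 bases, and 5 of the last 100 aligned bases differed. MARS-seq reads the 3′ end of a transcript, so part of the counts of one copy could have been placed on the other, and the sum of the copies is given beside each.

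Liver libraries held 155201 (WT 1) to 1686234 (HET 5) counts, and levels are given in CPM, a gene's share of its library's counts times 1000000. Because reads come from the 3′ end, CPM does not depend on transcript length. Levels of different genes are still only roughly comparable, since counts may be shared between copies, as in the hepcidin pair. All 10 hepatocyte markers, among them Alb, were detected in both genotypes and summed to 118131 to 129920 CPM in HET and 127008 to 146417 CPM in WT livers. In bulk tissue, fewer cells of a type and less RNA per cell cannot be told apart. Over the 7 livers, transferrin ranked 6 by mean CPM among all genes, Fth1 84, Hamp 115, Ftl1 138, Tfr2 573, Hamp2 606 and Cp 1575. Slc40a1 ranked 9509, Tfrc 14208 and Bmp6 14475.

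Hamp, the main hepcidin gene, varied as much within a genotype as between them. Its level was 1569 CPM (843 counts) in HET 1, 549 CPM (396 counts) in HET 2, 800.1 CPM (365 counts) in HET 3, 1606 CPM (425 counts) in HET 4 and 1803 CPM (3040 counts) in HET 5, against 264 CPM (41 counts) in WT 1 and 1667 CPM (571 counts) in WT 2. HET 2 and HET 3 were the low HET livers, WT 1 was the lowest of all 7, and the ranges overlapped. The highest liver exceeded the lowest 3.28-fold among HET and 6.31-fold among WT. The means were 1265 ± 554 CPM in HET (SD, 5 livers) and 965 ± 992 CPM in WT (SD, 2 livers). The fitted log2 fold change, HET over WT, was 0.46 ± 0.66 (SE), and it was 2.31 without WT 2 and -0.24 without WT 1.

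Hamp2, the second copy, was lower in all 5 HET livers than in either WT liver. HET 1 to HET 5 held 229, 44.4, 72.3, 60.5 and 91.3 CPM (123, 32, 33, 16 and 154 counts), against 374 and 841 CPM in WT 1 and WT 2 (58 and 288 counts). The groups did not overlap, HET 1 was nearest to WT, and WT 2 held the most. The means were 99.5 ± 74.4 CPM in HET (SD, 5 livers) and 607 ± 330 CPM in WT (SD, 2 livers), a ratio of 0.164. The fitted log2 fold change was -2.53 ± 0.51 (SE). It lay between -3.07 and -1.84 when each liver was left out in turn.

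**Figure D2:**
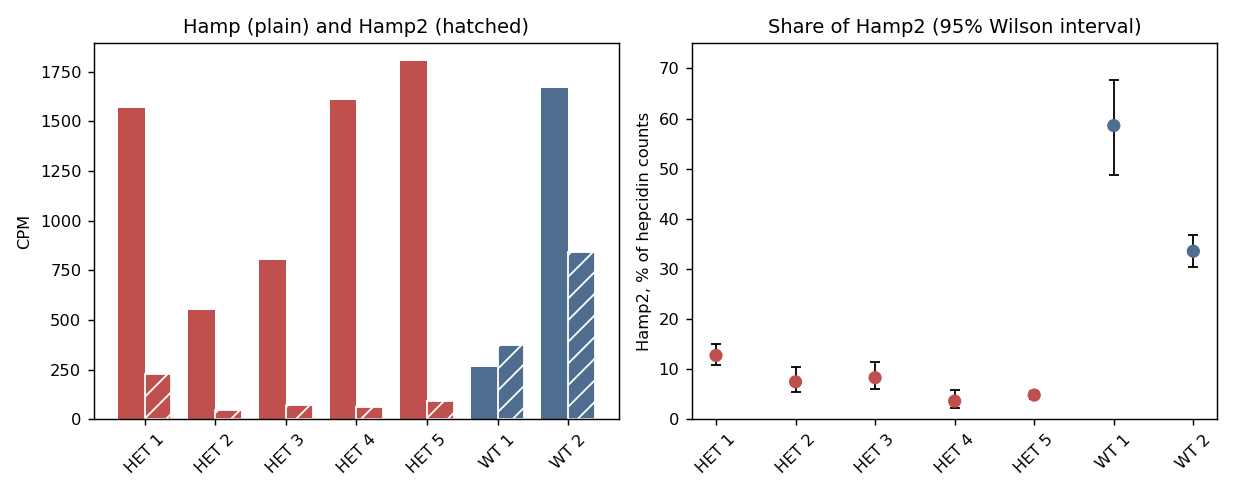
Left, CPM of Hamp (plain bars) and Hamp2 (hatched bars) in each liver library, HET in red and WT in blue. Right, Hamp2 as a percentage of the hepcidin counts with its 95% Wilson interval: the 5 HET livers lie between 3.63% and 12.7%, below WT 2 at 33.5% and WT 1 at 58.6%.

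The share of the second copy in a library does not depend on that library's scaling. Hamp2 made up 12.7% of the hepcidin counts in HET 1 (95% Wilson interval 10.8 to 15.0), 7.48% in HET 2 (5.35 to 10.4), 8.29% in HET 3 (5.96 to 11.4), 3.63% in HET 4 (2.25 to 5.81) and 4.82% in HET 5 (4.13 to 5.62), against 58.6% in WT 1 (48.7 to 67.8) and 33.5% in WT 2 (30.4 to 36.8). No interval of a HET liver reached that of a WT liver, and WT 1 held more Hamp2 than Hamp. The mean share was 7.39 ± 3.54% in HET (SD, 5 livers) and 46.1 ± 17.7% in WT (SD, 2 livers). The intervals cover counting error only.

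The summed hepcidin counts overlapped between genotypes. The sum had a lowest value of 593 CPM, a median of 1666 CPM and a highest of 1894 CPM in HET livers, against 638 and 2507 CPM in WT 1 and WT 2. The means were 1365 ± 591 CPM in HET (SD, 5 livers) and 1573 ± 1322 CPM in WT (SD, 2 livers), and the fitted log2 fold change was -0.13 ± 0.50 (SE). Its sign rested on single livers: it was 1.15 without WT 2, -0.72 without WT 1 and 0.05 without HET 2.

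**Figure D3:**
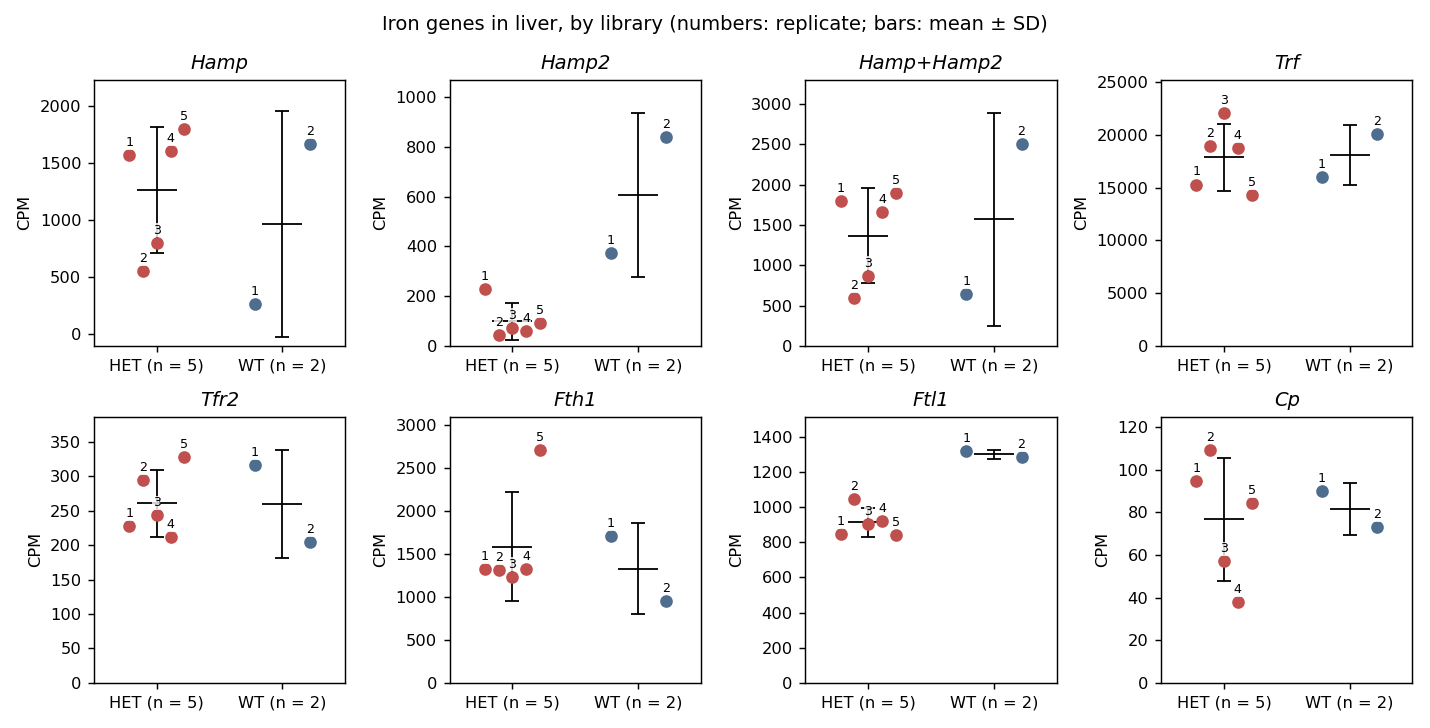
CPM (y axis, from 0 except for Hamp, where the error bar passes below 0) of 7 iron genes and the hepcidin sum in each liver, with the replicate number at each point and bars for mean ± SD (5 HET in red, 2 WT in blue). Hamp2 and Ftl1 are the panels in which HET and WT points do not overlap.

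Of the iron carriers and receptors, transferrin, the iron carrier of plasma, was the most abundant member at 15309.5, 18968, 22134, 18752 and 14272 CPM in HET 1 to HET 5, against 16063 and 20134 CPM in WT 1 and WT 2. The HET values lay on both sides of the WT values, with a fitted log2 fold change of 0.09 ± 0.29 (SE). Tfr2, the hepatocyte receptor that senses iron-loaded transferrin and takes part in hepcidin control, held 227, 294, 243, 212 and 329 CPM in HET 1 to HET 5, against 316 and 204 CPM in WT 1 and WT 2. Its ranges overlapped and its means were 261 ± 48.9 CPM in HET (SD, 5 livers) and 260.02 ± 78.8 CPM in WT (SD, 2 livers). The fitted log2 fold change was 0.11 ± 0.32 (SE). Tfrc, the receptor by which most cells take up transferrin, had 1 count in HET 5, 1 in WT 2 and 0 in the other livers, so no difference was detectable at this depth.

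The ferritin chains, which form the shell that stores iron, differed in their pattern. Fth1, the heavy chain with ferroxidase activity, held 1323, 1307, 1236, 1326 and 2714 CPM in HET 1 to HET 5, against 1707 and 952 CPM in WT 1 and WT 2. HET 5 stood above every other liver, the other 4 HET livers lay between the WT livers, and the fitted log2 fold change was 0.32 ± 0.34 (SE).

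Ftl1, the light chain, was lower in every HET liver than in either WT liver. It held 847, 1048, 905, 922 and 844 CPM in HET 1 to HET 5, against 1321 and 1284 CPM in WT 1 and WT 2. The gap was small beside that of Hamp2: the means were 913 ± 82.9 CPM in HET (SD, 5 livers) and 1303 ± 25.9 CPM in WT (SD, 2 livers), a ratio of 0.701. The fitted log2 fold change was -0.42 ± 0.26 (SE), between -0.49 and -0.30 when each liver was left out.

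Ftl1 has a near-identical copy, Ftl1-ps1 on chromosome 13, whose transcript matched that of Ftl1 at 99.56% of aligned bases and at all of the last 100, so counts of the pair are uncertain. Ftl1 and Ftl1-ps1 summed to 1073 ± 162 CPM in HET (943 to 1347 CPM, SD, 5 livers) and 1496 ± 47.2 CPM in WT (1463 and 1529 CPM, SD, 2 livers). The groups still did not overlap, and the fitted log2 fold change of the sum was -0.38 ± 0.27 (SE). The ratio of Fth1 to Ftl1 counts was 1.56, 1.25, 1.37, 1.44 and 3.22 in HET 1 to HET 5, against 1.29 and 0.741 in WT 1 and WT 2. This ratio overlapped between genotypes, since HET 2 lay below WT 1.

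Ferroportin, the exporter that hepcidin removes, was near the limit of detection. Slc40a1 had 0, 1, 0, 2 and 10 counts in HET 1 to HET 5, and 0 and 1 in WT 1 and WT 2. Ceruloplasmin, the plasma copper protein that oxidises exported iron, held 94.9, 110, 57.0, 37.8 and 84.2 CPM in HET 1 to HET 5, against 90.2 and 73.0 CPM in WT 1 and WT 2. Its HET values surrounded the WT values, with a fitted log2 fold change of 0.05 ± 0.44 (SE). Bmp6, the inducer made by endothelium, had 5 counts in HET 5 and 0 in the other 6 livers, where the summed WT counts allow a level of up to 6.03 CPM.

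**Figure D4:**
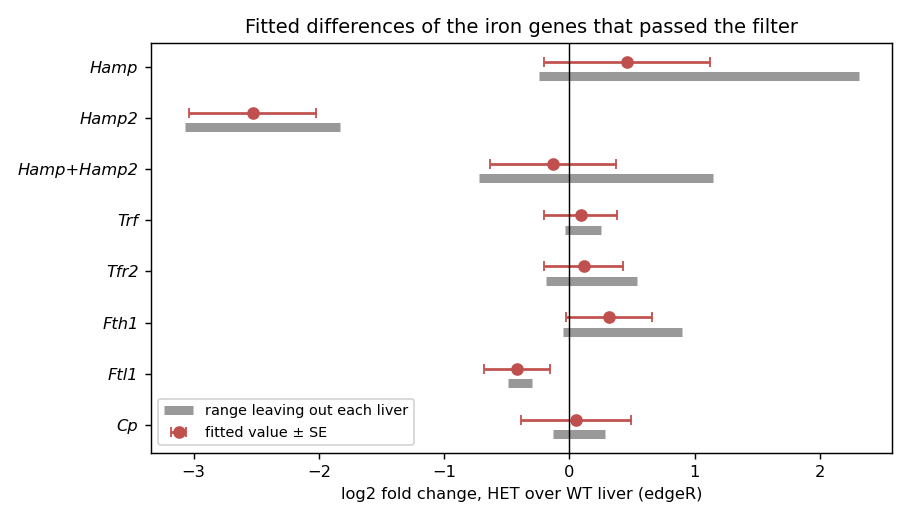
Fitted log2 fold change, HET over WT liver (x axis), of the 7 iron genes that passed the filter on low counts and of the hepcidin sum. Points with bars are the fitted value ± SE, grey bars the range when each liver is left out: those of Hamp2 and Ftl1 stay below 0 and that of Hamp reaches from -0.24 to 2.31.

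In the fit across all 4803 liver genes tested, 0 genes passed an adjusted p of 0.05 with edgeR (0%), and 497 (10.3%) had an unadjusted p under 0.05. Of the 10 iron genes, 7 passed the filter on low counts (Tfrc, Slc40a1 and Bmp6 did not), 0 were called and 1, Hamp2, had an unadjusted p under that value. DESeq2 called 16 genes, 8 in each direction, and Hamp2 was the 1 iron gene among them. Hamp2 and Ftl1 were the 2 iron genes with HET below WT in every liver, as 532 of all genes tested (11.1%) were. None lay above WT in every HET liver, against 334 of all genes (6.95%). The fitted values of the 7 genes were above 0 for 5 and below for 2, with a median of 0.09, beside 0.03 over all genes. These shares and calls describe genes picked in this same contrast, and nothing is read from them.

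Other cell types and blood differed between the livers. Macrophage markers summed to 334 to 749 CPM in HET livers (10 of 10 genes detected) and 722 to 738 CPM in WT livers (8 of 10), and endothelial markers to 116 to 254 CPM in HET and 219 to 226 CPM in WT livers (10 of 10 in both). Erythroid genes summed to 1530.1 to 10848 CPM in HET and 4549 to 6704 CPM in WT livers. Mitochondrial transcripts summed to 1079 to 2399 CPM in HET livers, all below the 2434 to 2841 CPM of WT livers. Pancreatic acinar genes summed to 98.4 to 192 CPM in HET livers (5 of 12 genes detected), all above the 37.9 to 70.9 CPM of WT livers (2 of 12). Xist had 0 counts in all 7 livers. Y-linked genes were counted in every liver and summed to 6.52 to 18.6 CPM in HET and 11.7 to 12.9 CPM in WT. Genes higher in male mouse liver summed to 7544 to 20443 CPM in HET and 7136 to 7796 CPM in WT. The part of these differences in the levels of Hamp2 and Ftl1 was not tested.

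The genes that carry BMP signals to hepcidin gave no call in liver with edgeR. Of 19 listed rows, 9 passed the filter, 0 had an unadjusted p under 0.05, 5 lay above 0 and 4 below, and the median log2 fold change was 0.01, beside 0.03 over all genes. Atoh8, a SMAD target that activates hepcidin, held 48.7 ± 19.6 CPM in HET (SD, 5 livers) and 85.7 ± 42.8 CPM in WT (SD, 2 livers), with a fitted log2 fold change of -0.66 ± 0.49 (SE). Tmprss6, the protease that cuts hemojuvelin and lowers hepcidin, held 730.5 ± 194 CPM in HET (SD, 5 livers) and 703 ± 7.90 CPM in WT (SD, 2 livers), with 0.15 ± 0.32 (SE). The signal transducers Smad4 and Smad5 had fitted log2 fold changes of 0.98 ± 0.81 and -0.55 ± 0.66 (SE).

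The interleukin 6 and acute-phase genes lay mostly above 0, also with no call in edgeR. Of 20 rows 18 passed the filter, and 2 had an unadjusted p under 0.05, beside 10.3% of all genes tested. Of the 18, 14 lay above 0 and 4 below, with a median log2 fold change of 0.67, beside 0.03 over all genes. Jak1, a kinase of the interleukin 6 receptor, held 44.6 ± 13.2 CPM in HET (30.2 to 59.6 CPM, SD, 5 livers) and 16.7 ± 5.34 CPM in WT (12.9 and 20.4 CPM, SD, 2 livers), with a fitted log2 fold change of 1.45 ± 0.57 (SE). The acute-phase protein genes Orm1 and Fgg had fitted log2 fold changes of 1.43 ± 0.63 and 0.78 ± 0.42 (SE), and the receptor gene Il6ra -0.63 ± 0.38 (SE). Orm1 and Fgg overlapped between genotypes, with lowest HET values of 1199 and 691 CPM, below WT 1 at 1263 and 896 CPM.

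Among HET livers, most of the acute-phase genes that passed the filter were highest in HET 3, and the others in HET 5. Saa1, a serum amyloid gene chosen here after its values were seen, held 544, 4326, 8821, 510.1 and 77.1 CPM in HET 1 to HET 5, against 567 and 703 CPM in WT 1 and WT 2. Saa2, Saa3, Saa4, Orm1, Orm2, Lcn2 and Lbp were likewise highest in HET 3 and next in HET 2, and Serpina3n was highest in HET 3. HET 2 and HET 3, which held the most Saa1, were the HET livers with the least Hamp. Fgg held 884, 1196, 730.0, 691 and 2098 CPM in HET 1 to HET 5, highest in HET 5, where Hamp was also highest. Fga and Crp were also highest in HET 5.

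Genes of iron transport and use gave 0 calls as well. Of 21 rows for uptake and trafficking 10 passed the filter, 0 had an unadjusted p under 0.05, 7 lay above 0 and 3 below, and the median log2 fold change was 0.23. The importer of non-transferrin iron Slc39a14 held 98.2 ± 33.4 CPM in HET (SD, 5 livers) and 159 ± 14.9 CPM in WT (SD, 2 livers), with -0.62 ± 0.36 (SE), and the mitochondrial iron importer Slc25a28 39.5 ± 14.9 CPM in HET (SD, 5 livers) and 73.7 ± 5.14 CPM in WT (SD, 2 livers), with -0.75 ± 0.45 (SE). Pcbp2, an iron chaperone, had 0.83 ± 0.40 (SE), and hemopexin (Hpx), which clears heme from plasma, 0.37 ± 0.44 (SE). Of 15 heme genes 12 passed the filter, 0 had an unadjusted p under 0.05, 8 lay above 0 and 4 below, with a median of 0.23. Fech, which inserts iron into heme, had a fitted log2 fold change of 1.09 ± 0.52 (SE). Of 15 iron-sulfur cluster genes 12 passed the filter, 1 had an unadjusted p under 0.05, 9 lay above 0 and 3 below, with a median of 0.49. Over all genes tested, 10.3% had an unadjusted p under 0.05 and the median was 0.03. Fdx1, a ferredoxin, held 270.3 ± 65.9 CPM in HET (SD, 5 livers) and 141 ± 55.3 CPM in WT (SD, 2 livers), with 1.05 ± 0.36 (SE), and Nfs1, the cysteine desulfurase, had 1.06 ± 0.52 (SE).

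Across the 7 livers, the log2 CPM of the hepcidin sum was most like that of Mprip (Pearson r = 0.974), Dnajb2 (0.970), Acp6 (0.961), Pfkfb1 (0.943) and Cisd3 (0.934), ranked over 4630 genes. Cisd3 encodes a mitochondrial iron-sulfur protein and Pfkfb1 the liver enzyme that sets fructose 2,6-bisphosphate. Cisd3 held 117, 48.5, 54.8, 79.3 and 93.7 CPM in HET 1 to HET 5, against 32.2 and 137 CPM in WT 1 and WT 2. Like hepcidin it was low in HET 2, HET 3 and WT 1 and highest in WT 2. Few livers and many genes stand behind these likenesses, the values share the depth and scaling of their libraries, and they are a description only.

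In pancreas, which the choice of genes did not use, the iron genes were sparse. Libraries held 49502 to 1326541 counts, and HET 11 and HET 16 stood apart: stomach mucosa markers summed to 228561 and 192677 CPM in them, against 18.4 to 25615 CPM in the other 9. Pancreatic acinar markers were also highest in them, at 165021 CPM in HET 11 and 62821 CPM in HET 16, against 105 to 15988 CPM in the other 9. Tfrc, Slc40a1 and Bmp6 had 0 counts in every pancreas, which allows up to 7.80 CPM in HOM, 1.31 CPM in HET (10.3 CPM without HET 11 and HET 16) and 9.00 CPM in WT. Trf, Tfr2 and Cp had counts in 2 or 3 libraries each and 0 in every WT pancreas. Cp, for example, had 36 counts in HOM 10, 10 in HOM 21 and 33 in HET 15.

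Hamp2 was the hepcidin copy counted in pancreas, and nearly all of it came from the libraries that stood apart. It had 132 counts in HET 11 (99.5 CPM) and 124 in HET 16 (185 CPM), 1 each in HOM 10 and HET 15, and 0 in the other 7 libraries, all 3 WT among them. Thus HET 11 and HET 16 held 256 of its 258 counts. Hamp had 4 counts in HET 16 and 0 in the other 10 pancreata. The hepatocyte genes Alb, Ahsg and Serpina1c had 0 counts in both HET 11 and HET 16, where 0 allows up to 2.26 and 4.47 CPM. Apoa1, which the intestine also expresses, had 5031 counts in HET 11 (3793 CPM) and 1883 in HET 16 (2808 CPM). The whole list of 10 hepatocyte markers summed to 3860 CPM in HET 11 and 2860 CPM in HET 16, so other members were also counted there. Of these 10 markers, 5 were detected in HET pancreata. Stomach and acinar markers were both highest in these libraries, and the part of either in the Hamp2 counts was not tested.

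**Figure D5:**
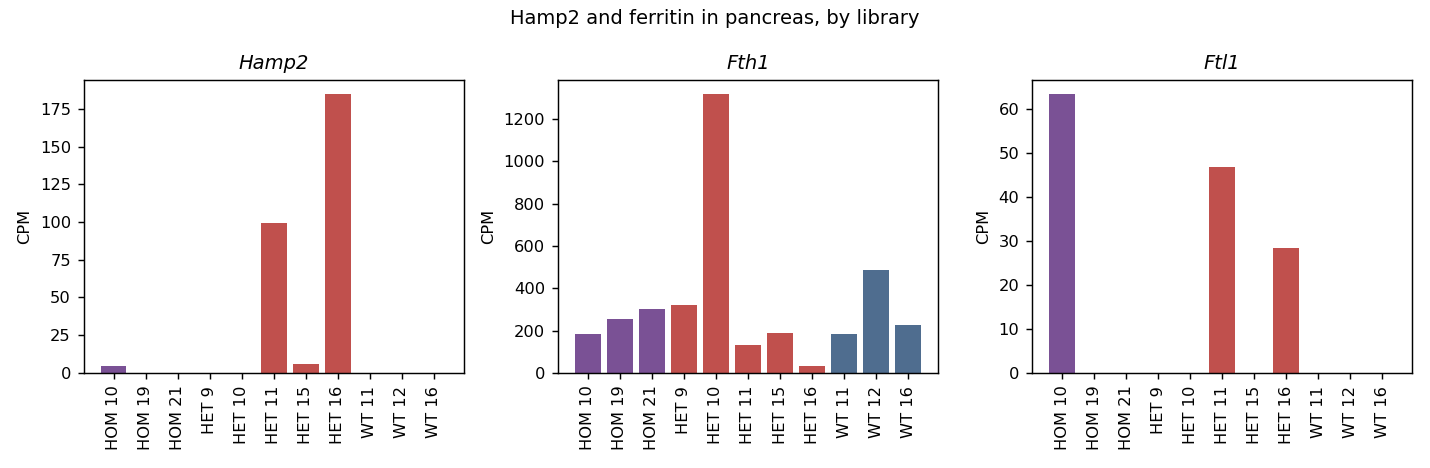
CPM of Hamp2, Fth1 and Ftl1 in each pancreas library (x axis), HOM in purple, HET in red and WT in blue. Hamp2 stands at 99.5 and 185 CPM in HET 11 and HET 16 and near 0 elsewhere, and Fth1 is highest in HET 10 at 1319 CPM.

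Fth1 was the 1 iron gene that passed the filter in pancreas. It held 185, 257 and 303 CPM in HOM 10, HOM 19 and HOM 21, and 323, 1319, 134, 191 and 34.3 CPM in HET 9, HET 10, HET 11, HET 15 and HET 16, against 185, 488 and 228 CPM in WT 11, WT 12 and WT 16. HOM lay within the WT range, and HET reached above and below it. The means were 248 ± 59.3 CPM in HOM (SD, n = 3), 400.3 ± 524 CPM in HET pancreata (SD, n = 5) and 300.4 ± 164 CPM in WT pancreata (SD, n = 3). Relative to WT, edgeR gave a log2 fold change of -0.19 ± 1.88 (SE) in HOM (adjusted p = 1) and 0.97 ± 1.70 (SE) in HET (adjusted p = 0.969), neither past the threshold.

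Across the 3719 pancreas genes tested, edgeR called 0 in HOM against WT (0%, 185 at an unadjusted p under 0.05) and 0 in HET against WT (0%, 517 at an unadjusted p under 0.05). DESeq2 called 5 in HOM and 183 in HET, and Fth1, the 1 iron gene tested, was not among them. Both comparisons share the WT libraries. Ftl1 had 13 counts in HOM 10, 62 in HET 11, 19 in HET 16 and 0 in the other pancreata, where Fth1 was still counted. Its copy Ftl1-ps1 had 12 counts in HOM 10, 13 in HET 11, 4 in HET 15, 1 in HET 16, 1 in WT 12 and 2 in WT 16. The pair was thus counted in 1 of 3 HOM, 3 of 5 HET and 2 of 3 WT pancreata, and was near the limit of detection in most.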

How the data were processed

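RNA from whole pancreas and liver (18 libraries) was sequenced by MARS-seq adapted to bulk RNA, per the labels' protocols. Counts per gene were deposited as whole numbers in 1 table per tissue, which the authors call corrected without saying for what. The submitters' processing notes name cutadapt, STAR and the build mm10. For their versions, the counting tool and the use of strand, nothing is given in the sources used here. The 10 genes, the pathway lists and the marker lists were chosen with earlier results of these data known.

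CPM is counts over the library total. Fits used edgeR 4.0.16 in R 4.3.3 on whole tables: filterByExpr by group, TMM, robust quasi-likelihood F test, Benjamini-Hochberg adjustment, threshold 0.05, with genotype in liver and genotype and sex in pancreas. Hepcidin and ferritin sums replaced their rows in a separate fit. The biological coefficient of variation was 35.4% in liver and 166% in pancreas. The script was tested on simulated data. Alternatives were DESeq2 1.42.0, other scalings and filters, no sex term, a replicate block, pancreas without HET 11 and HET 16, and leaving out each library. All 10 genes, up to 4 genes per list with the smallest p, and the 5 genes most like the hepcidin sum are named. Limits of 0 are 3 counts over the summed counts of a group, or of a library where one is named. Promoters are from RefSeq (GRCm38.p6), positions and transcripts from GENCODE.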

Additional observations from a re-analysis of the deposited data

Results flagged for a closer look

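In 10 of 54 groups of values examined, 1 library stood far from the others of its genotype. Chance flags about 1 group in 20, but this rate does not apply to 6 of the 10, in which every other HET library was at 0 and any count is flagged. In liver, Hamp2 was 229 CPM in HET 1, above 44.4 to 91.3 CPM in the other HET livers. Fth1 was 2714 CPM in HET 5, above 1236 to 1326 CPM in the others, and the ratio of Fth1 to Ftl1 was 3.22 there, above 1.25 to 1.56. Tfrc (0.593 CPM) and Bmp6 (2.97 CPM) were counted in HET 5, the deepest liver library, and at 0 in the other HET livers. In pancreas, Fth1 was 1319 CPM in HET 10, above 34.3 to 323 CPM in the other HET pancreata. Hamp at 5.96 CPM in HET 16, Trf at 14.3 CPM in HET 11, and Tfr2 at 61.5 CPM and Cp at 203 CPM in HET 15 were each at 0 in the other HET pancreata.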

How the results depend on the processing

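In liver, edgeR called 0 genes, DESeq2 16, the fit with no filter 57, that with a mean of at least 10 CPM 6, and 0 to 6 when each liver was left out (1 without HET 1, 6 without HET 5, 4 without WT 1). The iron genes called were 0, and 1 (Hamp2) with DESeq2, with no filter and without HET 1, a range of 0 to 1 over left-out livers. The Hamp2 calls are no test of that gene, since the iron genes were picked on the same liver values. A WT liver left alone was assumed to vary like the HET livers. The hepcidin sum lay between -0.72 and 1.15 when each liver was left out. Hamp2 and Ftl1 kept their sign in all 13 other settings, Hamp in 12, Trf in 11 and Cp in 9. Scaling by total counts moved the median of all genes by -0.10. With no filter the median, then over 18552 genes, moved by 0.40. In pancreas HET against WT, DESeq2 called 183 genes, the fit without sex 146, that without HET 11 and HET 16 9, and 0 to 92 when each library was left out (43 without HET 9, 92 without HET 15). In HOM against WT these were 5 with DESeq2, 13 without HET 11 and HET 16, and 0 to 4 (4 without HET 16). No iron gene was called in any pancreas setting, but few of the 10 were tested. The number tested was 1 in the main fit, 5 with a mean of at least 10 CPM and 7 with no filter. It was 1 to 3 when each library was left out. The causes of the changes in calls were not tested. With the replicate block, 41 liver and 157 pancreas genes were called, and no iron gene. In that fit the genotype difference rested only on same-numbered samples: HET 1 and HET 2 with WT 1 and WT 2 in liver. In pancreas these were HET 11 and HET 16, the libraries that stood apart, with WT 11 and WT 16. Each of these pairs set a female against a male with no sex term, so the pancreas calls cannot be read as genotype differences. Correlations of same-numbered samples were -0.05 to 0.01. With 2 WT livers and few such pairs, these values cannot decide whether the replicate numbers pair samples or mark a shared batch. The pancreas depth limits any statement on the iron genes, Fth1 among them. The Fth1 log2 fold change, HET over WT pancreas, was 0.97 with all libraries and -0.005 without HET 10.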
